A study of Drosophila simulans x Drosophila sechellia and Drosophila simulans x Drosophila mauritiana and Drosophila mauritiana x Drosophila simulans with 63 samples.

Results

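The cytoplasmic ribosomal protein genes were taken by name, as every gene whose *D. melanogaster* symbol starts with RpL or RpS followed by a digit or is RpLP0, RpLP1 or RpLP2. The rule found 83 genes, of which 75 were among the 10955 genes of the table for *D. simulans* and *D. mauritiana*, 83 among the 10733 genes of the table for *D. simulans* and *D. sechellia*, and 75 among the 10555 genes of the table for *D. sechellia* and *D. mauritiana*. A gene was measured through the RNA-seq reads that cover its variant sites, the positions at which the paired species differ, and 6, 8 and 13 of the ribosomal protein genes had no such site in those tables. Genes that averaged 5 scaled units or more over the embryos were tested, which left 66, 74 and 60 of them. By the *D. melanogaster* chromosome arms, 19 of the 83 lie on 2L, 17 on 2R, 12 on 3L, 21 on 3R, 1 on chromosome 4 and 13 on X. No measured value was used to choose them, and those left out for low values were genes without a site and the weakly read RpL37b, RpS28a and, in 1 table, RpS19b.

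The study crossed *D. simulans* (the w[501] strain), *D. mauritiana* (the [w1] strain) and *D. sechellia* (a wild-type strain) and sequenced polyadenylated RNA from 63 single embryos. The hybrids came from the 5 crosses *sim* x *mau*, *mau* x *sim*, *sim* x *sec*, *sec* x *mau* and *mau* x *sec*, with the mother's species named first. At late stage 5, after the zygotic genome has been activated, a hybrid embryo was the F1 of purebred parents, with 6 embryos per cross, 3 labelled XX and 3 labelled XY except in *sim* x *mau* (4 XX and 2 XY). At stage 2, before that activation, it was an egg of an F1 hybrid mother backcrossed to a male of the first-named species, with 3 embryos per cross, so the 2 alleles in it were transcribed in the hybrid mother. The purebred species gave 3 embryos per species and stage. Stage 5 and stage 2 hybrids thus had different kinds of mother. By the study's methods, the reads of the purebred species used to find variant sites came from an earlier study and the embryos collected were hybrids, so a difference in study cannot be told apart from hybrid status.

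Ribosomal proteins assemble with ribosomal RNA in the nucleolus into the small (RpS) and large (RpL) subunits, in equal numbers of nearly every protein. In a fly, the nurse cells of the ovary fill the egg with ribosomes and with ribosomal protein mRNA, and these mRNAs are known as a class whose translation is held back or released together through their shared 5′ ends. Flies with a single working copy of many of these genes grow slowly and have thin bristles, the Minute phenotype. Some of the proteins have a second gene copy, and several of these paralogs are used mainly in the germline.

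Between 2146524 and 7044646 reads at variant sites were counted per embryo. The markers fit the labelled stages. A sum over 11 maternal mRNAs was 6750.0 to 11308 scaled units at stage 5 and 38047 to 50757 at stage 2, a sum over 15 zygotic patterning genes was 12307 to 29433 at stage 5 and 107 to 742 at stage 2, and 10 of the 11 measured follicle cell and eggshell genes were at 0. Some features of the data touch the results below. In *mau* x *sec* at stage 5 the father's share of X-linked reads was 1.09%, 11.97% and 20.8% in the embryos labelled XX and 0.80%, 20.8% and 21.2% in those labelled XY, whereas in the other 4 crosses it was 19.5% to 24.4% in 13 XX embryos and 0.28% to 4.35% in 11 XY embryos. In the table for *D. simulans* and *D. sechellia*, 7 of the genes (among them RpL27, RpL7, RpS10b, RpS20, RpS3 and RpS3A) had no counted site in purebred *D. simulans* and RpS15 was almost without reads there, so no fold against that species is given for them in that table. Replicate 3 of stage 5 *D. sechellia* was more than 2-fold below both other replicates in 15 of 60 ribosomal protein genes (25.0%), against 5.47% of all genes.

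The first question was how the ribosomal protein transcripts changed from the maternal pool to late stage 5. They rose almost without exception, in every species and every cross. Together they took 12.2% to 16.9% of the reads in the hybrids at stage 5, against 5.45% to 7.07% in the hybrids at stage 2, and 8.10% to 10.4% in the purebred species at stage 5, against 3.52% to 6.02% at stage 2. Neither pair of ranges overlapped. The share was, for example, 13.3% ± 0.81 in *sim* x *mau* at stage 5 (SD, n = 6) and 6.04% ± 0.61 at stage 2 (SD, n = 3).

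**Figure D1:**
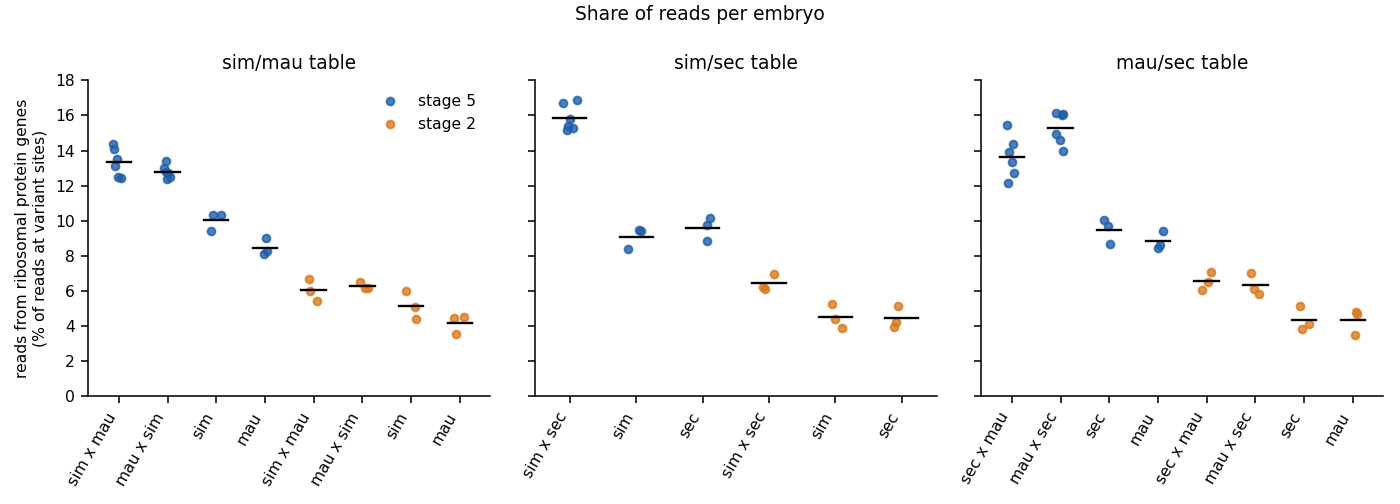
Percent of an embryo's reads at variant sites that fell on ribosomal protein genes, per embryo (points) with the group mean (line), in 1 panel per species pair, with stage 5 in blue left of stage 2 in orange and hybrids left of the purebred species. All stage 5 embryos lie between 8.10% and 16.9% and all stage 2 embryos between 3.52% and 7.07%.

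Gene by gene, the limma test called a rise at stage 5 in 66 of 66 genes in *D. mauritiana* (50.7% of all genes tested rose), 64 of 66 in *D. simulans* (50.6%), 58 of 60 in *D. sechellia* (49.6%), 65 of 66 in *sim* x *mau* (50.8%), 65 of 66 in *mau* x *sim* (50.8%), 72 of 74 in *sim* x *sec* (50.6%), 59 of 60 in *sec* x *mau* (51.3%) and 59 of 60 in *mau* x *sec* (50.8%). The 1 fall was in *mau* x *sim* (35% of all genes fell there). The median log2 difference over the ribosomal protein genes was between 1.76 in *mau* x *sim* and *D. simulans* and 2.14 in *mau* x *sec*, against 0.38 to 0.44 over all genes. Of the 54 genes tested in all 3 tables, 53 rose in all 8 comparisons, as did 39% of all genes tested in all 3 tables. In these whole-embryo libraries a change in the number of cells and a change in RNA per cell cannot be told apart, and a level is relative to the other polyadenylated RNA of the embryo. Scaled to the total reads of an embryo, an alternative chosen after seeing the data, all genes had medians of -0.45 to -0.30 and the ribosomal protein genes 0.95 to 1.31, which is 1.3 to 1.74 above them, against 1.32 to 1.75 in the deposited scaling. With that scaling 55 to 70 of the genes still rose in each comparison.

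RpL4, a large-subunit protein that lines the tunnel through which the new polypeptide leaves, shows the pattern. In the files it is gene FBgn0192793, with an exon at Scf_3R:23150360-23150469 on the plus strand of the *D. simulans* genome, and it was read at 3 variant sites in this species pair. In *sim* x *mau* its total was 14735 at the lowest, 15478 at the median and 17715 at the highest of 6 stage 5 embryos, against 3631, 4024 and 3941 at stage 2. In *D. simulans* it was 3958, 3227 and 3304 at stage 5, against 966, 1078 and 1011 at stage 2, and in *D. mauritiana* it was 1637, 1529 and 1749, against 597, 371 and 539.6. Stage 5 and stage 2 embryos did not overlap in any of these groups. The log2 difference was 2.04 ± 0.11 in *sim* x *mau*, 2.01 ± 0.11 in *mau* x *sim*, 1.77 ± 0.13 in *D. simulans* and 1.73 ± 0.13 in *D. mauritiana* (SE, limma adjusted p = 1.62e-16, 2.68e-16, 1.39e-13 and 2.57e-13). Scaled to the total reads, RpL4 differed by 1.26, 1.25, 0.96 and 0.98 in the same order, all called.

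Small- and large-subunit genes had similar medians. The median was 1.97 in *sim* x *mau* over 29 RpS genes and 1.94 over 37 RpL genes, and in *mau* x *sec* it was 2.11 over 28 and 2.19 over 32. The few exceptions were weakly read genes. RpL27, a large-subunit protein, was at 0 to 1.54 scaled units in *mau* x *sim* at stage 5 and at 2.16, 1.61 and 3.32 at stage 2, ranges that do not overlap, with a log2 difference of -1.09 ± 0.43 (limma adjusted p = 0.0214). With a pseudocount of 5 this was -0.38, and without replicate 3 of stage 2 it was -0.90, and neither was called for RpL27. RpL22-like, a paralog of RpL22 used in the fly germline, rose in *D. mauritiana* (26.6, 7.34 and 53.5 at stage 5, against 0.78, 0 and 0 at stage 2, limma adjusted p = 0.00627), a call that edgeR did not make. In *D. sechellia* it was at 0, 3.69 and 52.7 at stage 5 and at 634, 3.63 and 175 at stage 2, so that the 3 embryos of each stage spread over a wide and overlapping range. The log2 difference of RpL22-like there, -3.67 ± 1.76, missed the threshold (limma adjusted p = 0.0552), while TMM scaling (-3.98), edgeR (-4.27) and a pseudocount of 5 (-2.88) placed it past the threshold.

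Genes that build ribosomes rose less uniformly. Of 28 to 30 tested genes of a ribosome biogenesis list, among them the nucleolar methyltransferase Fib and the box C/D protein Nop56, 21 to 24 rose and 1 to 4 fell in each of the 8 comparisons, with medians of 1.25 to 1.53. The list shares RpL24-like and RpL7-like with the ribosomal protein genes. Of 7 or 8 genes that regulate ribosomal protein mRNA, such as the TOR pathway kinase S6k and the mRNA-binding protein larp, 3 to 6 rose and up to 2 fell.

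Levels of different genes were compared per variant site only, because a gene with more sites collects more reads. Over 61 genes with sites, leaving out the minor paralogs, the median in the table of *D. simulans* and *D. mauritiana* was 2178 scaled units per site in *D. simulans* and 1603 in *D. mauritiana* at stage 5, and 599 and 491 at stage 2. RpS3A, a small-subunit protein encoded on the small chromosome 4, was the highest at stage 5 in both species, with 7013 units per site in *D. simulans* and 11001 in *D. mauritiana*. RpL5, which binds the 5S ribosomal RNA, followed in both with 6582 and 8669. The stalk proteins, which recruit the translation factors, stood at 2637 (RpLP0), 2538 (RpLP1) and 1517 (RpLP2) in *D. simulans*.

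Several paralog pairs were far apart in level at stage 5. In *D. simulans* RpL22 had 2305 units per site and RpL22-like 9.71, RpS19a had 2385 and RpS19b 1.71, and RpL37a had 2602 and RpL37b 3.79. RpL7-like had 233 and RpL24-like 395, and the yeast relative of RpL24-like occupies the place of a ribosomal protein in the immature large subunit. The paralogs RpL10Aa and RpS28-like, and RpL30, had no site in any table. Reads of near-identical copies can be divided by the mapping, so the values of single paralogs are uncertain.

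The second question was which parental allele the transcripts carried at stage 5. Almost all ribosomal protein mRNA still carried the mother's allele, although the totals were higher than at stage 2. Over each stage 5 embryo, the father's allele made up 1.35% to 1.81% of the reads of the autosomal ribosomal protein genes in *sim* x *mau*, 1.16% to 1.45% in *mau* x *sim*, 1.3% to 1.55% in *sim* x *sec*, 1.89% to 2.55% in *sec* x *mau* and 0.97% to 1.26% in *mau* x *sec*. Over all autosomal genes of the same embryos it made up 18.6% to 26.3%. With the X-linked genes included, the ribosomal protein genes had 1.03% to 1.74% in 4 crosses and 4.31% to 4.75% in *sec* x *mau*, where the X-linked gene RpL7A was read almost wholly as the father's allele, and all genes had 17.8% to 24.5%. The ranges were far apart in each of the 30 embryos.

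The median share of the mother's allele over the ribosomal protein genes was 98.6% in *sim* x *mau*, 98.8% in *mau* x *sim*, 98.9% in *sim* x *sec*, 98.6% in *sec* x *mau* and 99% in *mau* x *sec*. Over all genes it was 66.8%, 62.8%, 67.2%, 70.7% and 70.1%. The test within embryos called the mother's allele higher in 67 of 67 genes in *sim* x *mau* (75.3% of all genes), 63 of 66 in *mau* x *sim* (62%), 73 of 73 in *sim* x *sec* (74.2%), 59 of 60 in *sec* x *mau* (74.2%, with 1 gene toward the father's allele, against 6.14% of all genes) and 60 of 60 in *mau* x *sec* (61.6%), with median log2 differences of 6.14 to 6.64 against 0.75 to 1.28 over all genes. X-linked genes were read from the labelled XX embryos alone. With all 6 embryos of *mau* x *sec*, an alternative chosen after seeing the data because of the sex labels, 60 of 60 were again called. Mapping the reads to the other species' genome gave a call on the same side in 57 of 67, 56 of 63, 63 of 73, 57 of 60 and 58 of 60 of the called genes.

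**Figure D2:**
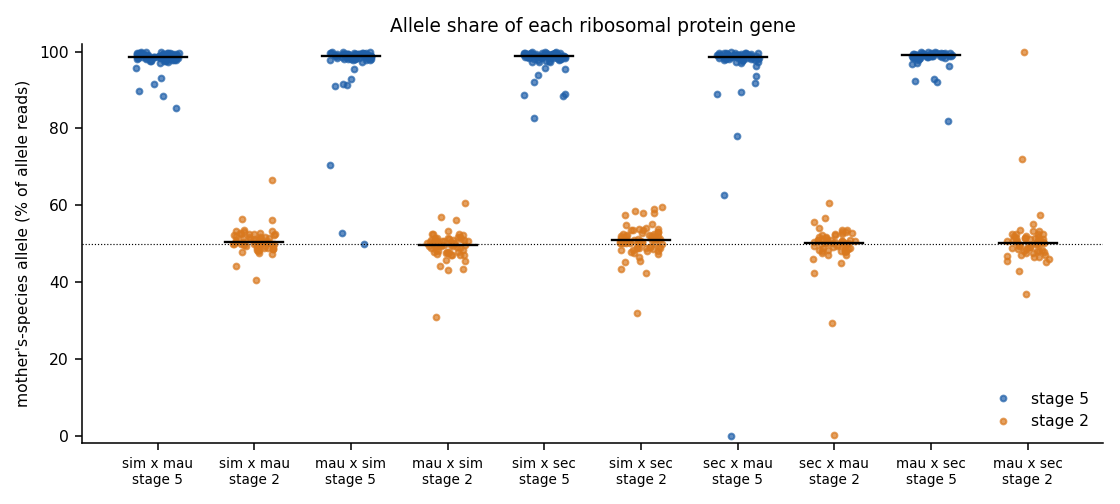
Percent of reads from the first-named species' allele for each ribosomal protein gene (points) in the 5 crosses, stage 5 left of stage 2, with the median as a line. Stage 5 medians are 98.6% to 99% and stage 2 medians 49.8% to 50.8%.

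RpL4 shows the shares in single embryos, though it was below the median of these genes in every cross. Its mother's share at stage 5 was 97.35% to 98.14% over the 6 embryos of *sim* x *mau*, 98.16% to 98.59% in *mau* x *sim*, 97.98% to 98.43% in *sim* x *sec*, 97.72% to 98.43% in *sec* x *mau* and 98.49% to 98.74% in *mau* x *sec*. The share of 97.8% in *sim* x *mau* came from 74475 maternal and 1664 paternal reads, with a 95% beta interval of 97.7% to 97.9% that covers counting error only. The log2 difference of the mother's allele over the father's allele of RpL4 was between 5.50 ± 0.06 in *sim* x *mau* and 6.15 ± 0.05 in *mau* x *sec* (limma adjusted p = 1.78e-14 and 4.29e-15). No embryo of any cross came near an even share.

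The father's allele was low, though above the rate of wrong assignment. Reads of the father's species appeared in purebred embryos of the mother's species at a median of 0.071% to 0.193% over the genes, and the father's share in the hybrids, with medians of 1.00% to 1.35%, was above the gene's own rate in 66 of 67, 60 of 66, 64 of 66, 59 of 60 and 57 of 60 genes in the order *sim* x *mau*, *mau* x *sim*, *sim* x *sec*, *sec* x *mau* and *mau* x *sec*. Reads that span several sites may be counted at each, so these counts are not independent molecules.

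In the deposited scaling, a rise of at least 1 on the log2 scale together with a mother's share of at least 95% was seen in 61 of 66 ribosomal protein genes in *sim* x *mau*, 59 of 65 in *mau* x *sim*, 66 of 72 in *sim* x *sec*, 52 of 60 in *sec* x *mau* and 55 of 60 in *mau* x *sec*. Among the other genes 4.24% to 6.50% did so, and ribosomal protein genes were 12.6% to 19.2% of all genes in that class. Other genes that rose at least as much had median mother's shares of 65.9% to 75.7%. The ribosome biogenesis list had median shares of 78.9% to 86.5%, with 1 to 3 of 28 or 29 genes over 95%, and the regulator list 54.0% to 74.7%.

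**Figure D3:**
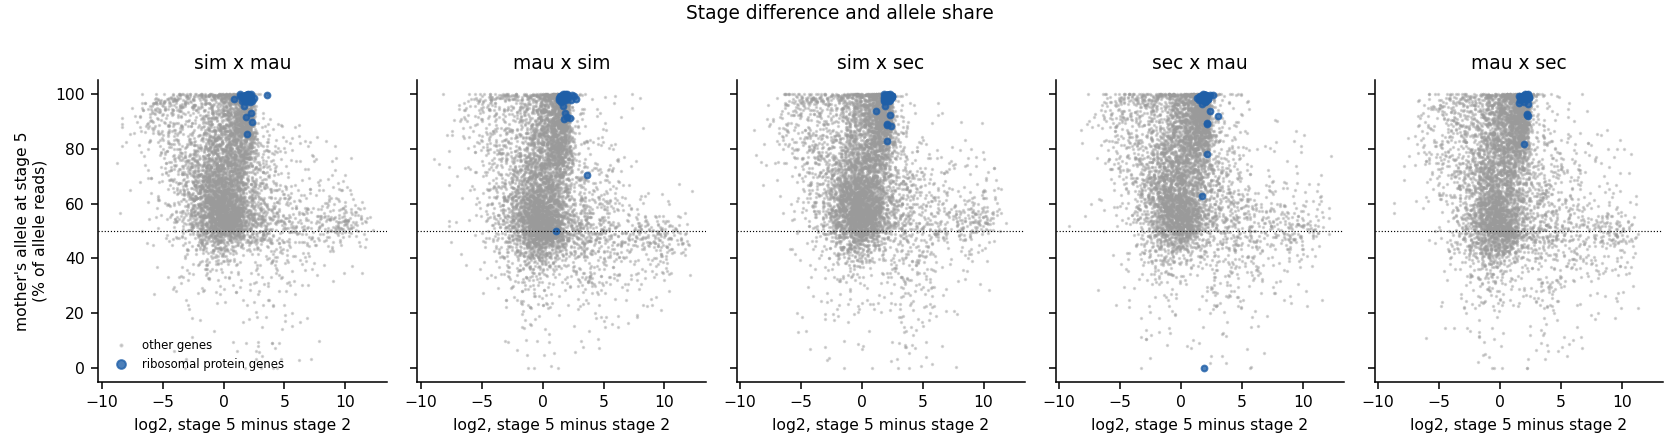
Mother's allele share at stage 5 in percent (vertical) against the log2 difference of the total at stage 5 minus stage 2 (horizontal), 1 point per gene, in 1 panel per cross, with ribosomal protein genes in blue and other genes in grey. In *sim* x *mau*, 61 of 66 ribosomal protein genes lie at a rise of at least 1 and a share of at least 95%, against 4.33% of the other genes.

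The genes with a lower mother's share, singled out after their values were seen, were largely the same in each cross. RpL7-like stood at 85.3% in *sim* x *mau*, 91.5% in *mau* x *sim*, 88.8% in *sim* x *sec*, 89.5% in *sec* x *mau* and 92.0% in *mau* x *sec*. RpL24-like was at 90.9% to 93.7%. RpL3, which lies close to the peptidyl transferase centre, was at 95.5% to 97.04%.

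Other low shares depended on the genome the reads were mapped to. RpL40, made as a fusion to ubiquitin, had 62.7% in *sec* x *mau* but 96.5% after mapping to *D. mauritiana*, and RpS6, the substrate of S6 kinase, had 78.0% but 98.5%. Purebred *D. sechellia* embryos at stage 5 had 20.1% of their RpL40 reads and 17.5% of their RpS6 reads assigned to *D. mauritiana*. RpS14a, 1 of a tandem pair of small-subunit genes, had 82.7% in *sim* x *sec* and 52.9% after mapping to *D. sechellia*. RpL7A was the single gene called toward the father's allele, with a mother's share of 0.03% in *sec* x *mau*, and 99.9% in *mau* x *sec*. Purebred *D. sechellia* embryos were read as *D. mauritiana* at its sites too, so RpL7A carries no information on the alleles in this pair. The genes of *mau* x *sim* that were not called had few reads, such as RpL26 with 19 reads of each allele.

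In XY embryos, whose single X comes from the mother, the X-linked ribosomal protein genes had median mother's shares of 99.8% to 99.95% in the 4 crosses whose labels fit the X-linked reads, and 99.3% in *mau* x *sec*. In the XX embryos of *sim* x *mau* the 10 X-linked genes had a median of 97.9% and the 57 autosomal genes 98.7%. No X-linked ribosomal protein gene differed in total between XX and XY embryos by limma, of 10, 13 and 8 tested (41.9%, 16.5% and 0% of all X-linked genes were higher in XX). At an unadjusted p under 0.05 there were 1 (RpS19a), 4 (RpL17, RpL22, RpL35 and RpS28b) and 0, and edgeR called 0 in each table. The log2 differences of XX over XY ranged over -0.02 to 0.15, -0.35 to -0.07 and -0.05 to 0.13. Without the *mau* x *sec* embryos, 0 of 8 were called and 1.39% of X-linked genes were higher in XX.

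At stage 2 the alleles were close to even. The median share of the first-named species' allele was 50.6% in *sim* x *mau*, 49.8% in *mau* x *sim*, 50.8% in *sim* x *sec*, 50.2% in *sec* x *mau* and 50.1% in *mau* x *sec*. It lay between 45% and 55% in 57 of 62, 55 of 62, 63 of 72, 51 of 58 and 52 of 58 genes. Over each embryo the second-named allele made up 49.4% to 50.5% of the reads of the autosomal ribosomal protein genes, and 48.8% to 51.2% with the X-linked ones included. RpL4 had shares of 49.9%, 50.3%, 50.7%, 50.5% and 50.9% in that order of crosses, and none was called.

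Small departures from an even share were nevertheless called, in part depending on the genome mapped to. Of the genes, 21 were called higher (35.4% of all genes) and 8 lower (12.6%) for the first-named allele in *sim* x *mau*, 9 (10%) and 18 (28.5%) in *mau* x *sim*, 28 (37.6%) and 14 (15.9%) in *sim* x *sec*, 17 (37.1%) and 17 (18.5%) in *sec* x *mau*, and 18 (19.6%) and 19 (38.6%) in *mau* x *sec*. After mapping to the other species' genome, 21 of 29, 21 of 27, 24 of 42, 27 of 34 and 31 of 37 calls kept their side. In the same order of crosses, 2, 1, 4, 1 and 2 turned to the opposite side, and the rest were not called or not tested. In the crosses of *D. simulans* and *D. mauritiana*, 10 of 62 genes favoured *D. simulans* in both crosses and both mapping directions (among them RpL24, RpL35A, RpL5, RpL7, RpS13, RpS18, RpS20, RpS4 and RpS9), as did 7.68% of all genes, and 7 favoured *D. mauritiana*, against 7.08% of all genes (RpL10, RpL23, RpL3, RpL7-like, RpLP0, RpS3 and RpS3A). In those of *D. sechellia* and *D. mauritiana*, 13 of 58 favoured *D. sechellia* (14.4% of all genes) and 10 favoured *D. mauritiana* (13.8%) in the same sense, with RpL5, RpS20, RpS4 and RpS9 again against *D. mauritiana* and RpL7-like and RpLP0 again toward it.

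RpS9, a small-subunit protein of the decoding region, had 56.0% to 56.5% of the *D. simulans* allele over the 3 embryos of *sim* x *mau* and 42.7% to 44.0% of the *D. mauritiana* allele in *mau* x *sim* (log2 differences of 0.36 ± 0.03 and -0.39 ± 0.03, limma adjusted p = 2.01e-14 and 2.67e-05). RpL7-like went the other way, with 39.4% to 41.0% of the *D. simulans* allele in *sim* x *mau* and 55.3% to 57.3% of the *D. mauritiana* allele in *mau* x *sim* (-0.57 ± 0.04 and 0.36 ± 0.04, limma adjusted p = 8.93e-14 and 0.00039). RpLP0 of the stalk also favoured *D. mauritiana*, at 43.4% to 44.4% of the *D. simulans* allele and, with 1 embryo apart, 54.4% to 66.2% of the *D. mauritiana* allele (-0.35 ± 0.03 and 0.52 ± 0.12, limma adjusted p = 6.53e-12 and 0.00989). For all 3 genes the embryos of the reciprocal crosses lay on opposite sides of an even share, as the same species' allele was higher in both.

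RpL40 and RpS25 were singled out after their values were seen. RpL40 had 29.4% of the *D. sechellia* allele in *sec* x *mau* and 72.1% of the *D. mauritiana* allele in *mau* x *sec*, and 43.3% and 57.8% in the other direction. In purebred *D. sechellia*, 19.99% of the RpL40 reads at stage 2 and 20.1% at stage 5 were assigned to *D. mauritiana*, so these shares of RpL40 hold wrongly assigned reads. RpS25, with 790.0 and 396 reads in *sim* x *mau*, was at 66.6% there and at 30.8% of the *D. mauritiana* allele in *mau* x *sim*, and had no value in the other direction.

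Between the purebred species, ribosomal protein transcripts were higher in *D. simulans* than in *D. mauritiana* more often than the reverse. At stage 5, 32 of 66 genes were higher (25.8% of all genes) and 8 lower (29.7%), and at stage 2, 35 were higher (16.5%) and 5 lower (20.2%). The medians were 0.35 and 0.36, against -0.04 and -0.02 over all genes. RpLP1 of the stalk differed the most, with 5753, 4740.2 and 4736 units in *D. simulans* and 808, 584 and 963 in *D. mauritiana* at stage 5. The species did not overlap, and the log2 difference was 2.72 ± 0.35 (limma adjusted p = 2.46e-07). At stage 2 it was 2.12 ± 0.35 for RpLP1, which was 1.47 without replicate 2 of *D. mauritiana* and 2.71 without replicate 1. The genes lower in *D. simulans* included RpL7-like (-0.70 ± 0.09 at stage 5 and -0.79 ± 0.09 at stage 2).

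*D. sechellia* and *D. mauritiana* differed in 23 genes upward (23.3%) and 11 downward (25.8%) at stage 5, and in 13 upward (14.2%) and 12 downward (17%) at stage 2, out of 60. Without replicate 1 or replicate 2 of stage 5 *D. sechellia* 22 genes were called in all at stage 5, and without replicate 1 or 2 of stage 2 *D. sechellia* 15 and 16 at stage 2. After mapping to *D. mauritiana*, 18 of the 34 stage 5 calls and 11 of the 25 stage 2 calls kept their side. Of the others, 2 and 1 turned to the opposite side, and 14 and 13 were not called or not tested. For *D. simulans* and *D. sechellia* the counts were 15 higher (26.7%) and 19 lower (27%) at stage 5 and 17 higher (13.2%) and 16 lower (14.7%) at stage 2, out of 74. Among the genes with as many sites in either species, an alternative chosen after seeing the data, they were 11 of 34 higher (29.4%) and 0 lower (19.4%) at stage 5, and 12 of 33 higher (15.1%) and 0 lower (7.07%) at stage 2. After mapping to *D. sechellia*, 9 of the stage 5 calls and 10 of the stage 2 calls of this pair turned to the opposite side.

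RpL35A is a large-subunit protein mutated in human Diamond-Blackfan anaemia. It was called higher in *D. simulans* than in either other species, and higher in *D. sechellia* than in *D. mauritiana*. Each pair was read at its own sites, 3 in both pairs with *D. simulans* and 1 in the third pair. The 3 differences do not add up, since those of *D. simulans* from the other species are close to each other. The sizes thus give no ranking of the 3 species. Its log2 differences were 1.33 ± 0.17 at stage 5 and 1.28 ± 0.17 at stage 2 for *D. simulans* over *D. mauritiana*, 1.08 ± 0.36 and 1.16 ± 0.36 for *D. simulans* over *D. sechellia*, and 1.78 ± 0.48 and 1.51 ± 0.48 for *D. sechellia* over *D. mauritiana* (limma adjusted p of 1.71e-07 to 0.0179). Single embryos carried some of these calls of RpL35A. The stage 5 difference from *D. sechellia* was 0.52 and no longer called without replicate 3 of that species, and at stage 2 it was 0.65 without replicate 3 of *D. sechellia* and 1.08 without replicate 3 of *D. simulans*. For *D. sechellia* over *D. mauritiana* at stage 2, RpL35A was at 0.73 without replicate 2 of *D. mauritiana*, and at 1.12 and 1.33 without replicates 1 and 2 of *D. sechellia*, none of them called.

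RpS3A went the other way, with 34105, 34352 and 36743 units in *D. simulans* and 53969.5, 54049 and 56989 in *D. mauritiana* at stage 5. The ranges did not overlap. The log2 difference was -0.65 ± 0.12 at stage 5 and -0.59 ± 0.12 at stage 2 for *D. simulans* over *D. mauritiana*, and -1.0 ± 0.21 and -1.03 ± 0.21 for *D. sechellia* over *D. mauritiana* (limma adjusted p = 7.43e-05, 0.00047, 0.000292 and 0.00044).

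The last question was how the totals of the hybrids compared with those of the parents. A hybrid's 2 alleles were added and set against the mid-parent, the mean of the log2 values of its purebred species. The hybrid totals of these genes were mostly above the mid-parent in all 5 crosses and at both stages. At stage 5 almost all of this RNA carried the allele of a purebred mother, while the mid-parent weighs both species equally. In all of these comparisons a difference in study cannot be told apart from hybrid status, as stated above. Upward and downward calls at stage 5 were 44 (25.9%) and 5 (31.2%) of 66 genes in *sim* x *mau*, 39 (27.4%) and 11 (27.5%) of 66 in *mau* x *sim*, 58 (26%) and 2 (24.7%) of 74 in *sim* x *sec*, 42 (28.4%) and 4 (31%) of 60 in *sec* x *mau*, and 47 (30.1%) and 2 (30.5%) of 60 in *mau* x *sec*. At stage 2 they were 37 (16.3%) and 5 (18.4%), 43 (15.2%) and 6 (16%), 45 (13.3%) and 7 (13.1%), 37 (18.3%) and 1 (21.9%), and 38 (20.1%) and 5 (23.6%) in the same order. The medians were 0.37 to 0.93 on the log2 scale, against -0.06 to 0.01 over all genes. Reciprocal crosses share their purebred embryos.

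**Figure D4:**
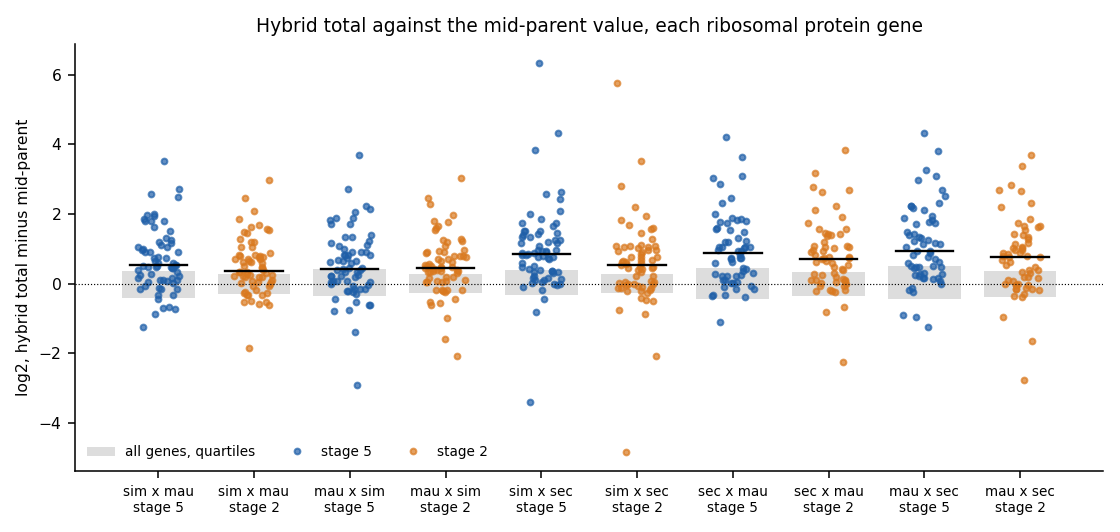
Log2 difference of hybrid total minus mid-parent for each ribosomal protein gene (points) in the 5 crosses, stage 5 left of stage 2, with the median (line) and the quartiles of all genes (grey). The medians of the ribosomal protein genes lie above 0 in every group, for example among 66 genes at 0.52 in *sim* x *mau* at stage 5 and 0.37 at stage 2; genes without sites in *D. simulans* are not drawn for *sim* x *sec*.

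In *sim* x *sec* the genes without sites in *D. simulans* inflate the count. Among genes with as many sites in every group, 22 of 34 were higher and 1 lower at stage 5 (22.5% and 27.4% of such genes), and 16 of 32 higher and 5 lower at stage 2 (9.32% and 15.5%). Hybrids were called above both parental species in 32 and 21 genes at stages 5 and 2 in *sim* x *mau* (10.2% and 6.05% of all genes), 30 and 24 in *mau* x *sim* (11.2% and 6.22%), 46 and 27 in *sim* x *sec* (8.91% and 4.09%), 35 and 30 in *sec* x *mau* (13.8% and 9.24%), and 40 and 30 in *mau* x *sec* (15.5% and 11.3%). At stage 5 every hybrid embryo lay above every purebred embryo in 30 genes in *sim* x *mau* (9.17% of all genes), 35 in *mau* x *sim* (9.52%), 49 in *sim* x *sec* (7.98%), 34 in *sec* x *mau* (10.1%) and 38 in *mau* x *sec* (12.2%). Genes of ribosome biogenesis had fewer upward calls. In each of the 10 comparisons 4 to 10 of 28 to 30 were higher and 5 to 18 lower than the mid-parent.

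RpL4 had 1 of the greater excesses. Set against the *D. simulans* and *D. mauritiana* totals given above, *mau* x *sim* had 14564, 15694.5 and 17510.0 (lowest, median and highest) at stage 5 and 4468, 3486 and 3841 at stage 2. Every hybrid embryo of RpL4 was above every purebred embryo of its stage. The log2 excess over the mid-parent was 2.73 ± 0.09 at stage 5 and 2.45 ± 0.11 at stage 2 in *sim* x *mau*, and 2.72 ± 0.09 and 2.46 ± 0.11 in *mau* x *sim* (limma adjusted p = 1.5e-19, 1.29e-15, 3.39e-19 and 1.06e-15). The excess of RpL4 was 2.63 ± 0.27 and 2.19 ± 0.33 in *sim* x *sec*, 3.65 ± 0.36 and 3.18 ± 0.44 in *sec* x *mau*, and 3.81 ± 0.36 and 3.38 ± 0.44 in *mau* x *sec*. Without replicate 3 of *D. sechellia* at the same stage, RpL4 had 3.26 and 2.84 in *sec* x *mau*, and 3.42 and 3.04 in *mau* x *sec*.

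RpL5 stands in contrast. Its totals at stage 5 were 11536, 14098 and 15198 (lowest, median and highest) in *sim* x *mau* and 11340.0, 11988.5 and 13946 in *mau* x *sim*, against 12336, 15111 and 12047 in *D. simulans* and 16928, 16269 and 18815 in *D. mauritiana*. The hybrids overlapped *D. simulans* and lay below *D. mauritiana*. For RpL5, the log2 difference from the mid-parent was -0.16 ± 0.08 in *sim* x *mau* (limma adjusted p = 0.0996) and -0.31 ± 0.08 in *mau* x *sim* (0.00235), and after mapping to *D. mauritiana* the value of *sim* x *mau*, -0.25, was called.

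**Figure D5:**
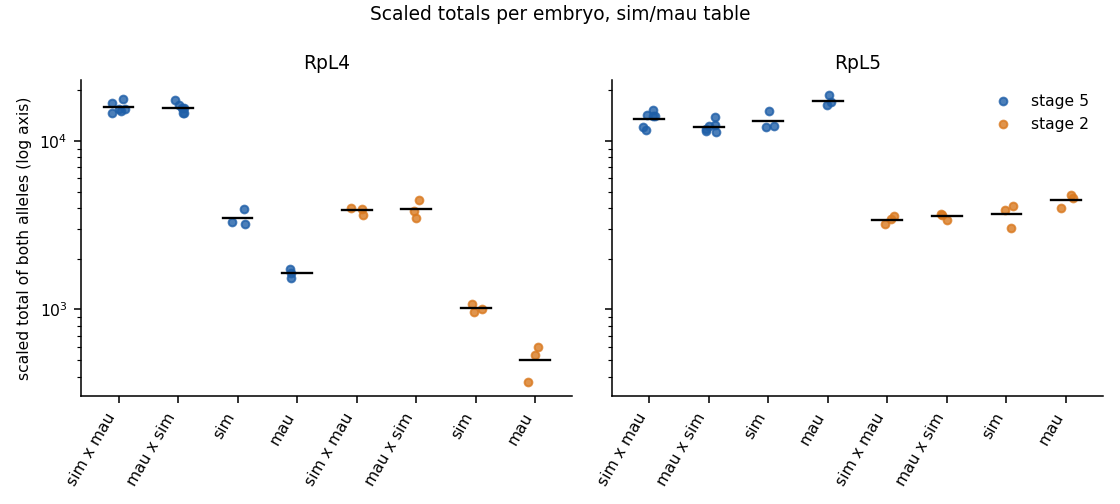
Scaled totals of RpL4 and RpL5 per embryo on a log axis in the hybrids of *D. simulans* and *D. mauritiana* and in both species, stage 5 and stage 2. For RpL4 at stage 5 the lowest hybrid embryo (14564) is above the highest purebred embryo (3958), whereas for RpL5 hybrids (11340.0 to 15198) and *D. simulans* (12047 to 15111) overlap.

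Among the genes with the greatest excess were RpL35A, RpL23 and RpL24. RpL35A had 4947, 5825 and 6801 units (lowest, median and highest) in *mau* x *sec* at stage 5, against 785, 959 and 201.4 in *D. sechellia* and 159, 161 and 146 in *D. mauritiana*. No hybrid embryo overlapped a purebred one, and the log2 excess was 4.33 ± 0.34 (limma adjusted p = 1.99e-11). At stage 2 it was 3.70 ± 0.41, and in *sec* x *mau* 4.21 ± 0.34 at stage 5 and 3.84 ± 0.41 at stage 2.

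RpL23, which faces the small subunit and binds the anti-association factor eIF6, had 6065, 7999.8 and 8846 units in *sim* x *mau* at stage 5, against 1304, 1185 and 1015 in *D. simulans* and 364, 336 and 424 in *D. mauritiana*. The groups again did not overlap. Its log2 excess was 3.52 ± 0.15 in *sim* x *mau* and 3.69 ± 0.15 in *mau* x *sim* at stage 5 (limma adjusted p = 1.44e-16 and 6.23e-17). With reads mapped to *D. mauritiana* these were 5.42 and 5.55, so the size of the RpL23 excess depends on the genome.

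RpL24, which forms a bridge between the subunits, had 8758, 9913 and 11244 units in *sim* x *sec* at stage 5, against 807, 449.7 and 569 in *D. simulans* and 821, 1067 and 71.0 in *D. sechellia*. All hybrid embryos were above all purebred ones. The log2 excess of RpL24 was 4.34 ± 0.53 (limma adjusted p = 9.31e-07) and was 3.73 without replicate 3 of *D. sechellia*.

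Higher in all 10 comparisons of hybrid with mid-parent were 23 of the 54 genes tested in all 3 tables (among them RpL11, RpL14, RpL18, RpL22, RpL23, RpL24, RpL24-like, RpL28, RpL35, RpL35A, RpL36, RpL37a, RpL4, RpL6, RpL8, RpS19a, RpS2, RpS21, RpS26, RpS27, RpS3 and RpS9). For 2 of the 23, RpS3 among them, the *sim* x *sec* values rest on the missing sites in *D. simulans*. Many others had fewer counted sites in purebred *D. simulans* than in these hybrids, such as RpL35 (3 against 7), RpL36 (3 against 6) and RpS26 (2 against 4). The same held for RpL11, RpL24-like, RpL28, RpL37a, RpL6, RpS19a, RpS2 and RpS9, and at stage 5 for RpL22. Fewer sites lower the purebred total. Others again, such as RpL4 (8) and RpL8 (7), had equal numbers. Of all genes tested in all 3 tables, 4.06% were higher in all 10. No gene was lower in all 10.

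The lower genes were fewer. RpS3A had 22359.8, 27840.4 and 29922 units in *sim* x *mau* at stage 5 (lowest, median and highest), below every *D. simulans* and *D. mauritiana* embryo listed above. Its log2 differences at stage 5 and stage 2 were -0.73 ± 0.09 and -0.54 ± 0.11 in *sim* x *mau*, -0.52 ± 0.09 and -0.43 ± 0.11 in *mau* x *sim*, -1.10 ± 0.15 and -0.81 ± 0.18 in *sec* x *mau*, and -0.90 ± 0.15 and -0.96 ± 0.18 in *mau* x *sec*, and all 8 were called by limma. RpL10Ab, the protein of the mobile L1 stalk, was lower in *sim* x *mau* (-0.71 ± 0.12 and -0.51 ± 0.14) and *mau* x *sim* (-0.61 ± 0.12 and -0.99 ± 0.14).

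The spread among purebred embryos moved with this excess in some crosses. The median SD over the genes on the log2 scale was 0.07 to 0.12 in hybrid groups of stage 2 and 0.12 to 0.40 in purebred groups of both stages. In *mau* x *sec* at stage 5, the 30 genes with less spread among their purebred embryos had a median excess of 0.48, with 21 of them called higher, and the 30 with more spread had 1.73, with 26 higher. In *sec* x *mau* the same medians were 0.27 and 1.51, and in *sim* x *sec*, over 31 genes with equal sites, 0.11 and 1.41. They were 0.54 and 0.50 in *sim* x *mau* at stage 5, but 0.27 and 0.69 at stage 2, and in *mau* x *sim* 0.44 and 0.35 at stage 5 and 0.33 and 0.71 at stage 2. As a description across genes, which share their embryos and are not replicates, Spearman's rho between spread and excess at stage 5 was 0.46 in *mau* x *sec*, 0.56 in *sec* x *mau*, 0.81 in *sim* x *sec* and -0.04 in *sim* x *mau*. The part of this spread in the excess was not tested.

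Whether the excess itself differed between the stages was tested as an interaction. It was larger at stage 5 in 5 of 66 genes in *sim* x *mau* (5.82% of all genes), in 18 of 74 in *sim* x *sec* (7.98%) and in 3 of 60 in *mau* x *sec* (5.31%), and smaller in 2 of 66 in *mau* x *sim* (7.95%). In *sec* x *mau* limma called 0 of 60 (9.44% of all genes in either direction), with 4 at an unadjusted p under 0.05 (RpL24-like, RpLP0, RpS19b and RpS25) and 0 by edgeR. The greatest called differences in *sim* x *mau* were in RpL35 (0.66 ± 0.15) and RpL24 (0.65 ± 0.15), and that in *mau* x *sec* was in RpL12, which lies at the base of the stalk (0.63 ± 0.16). In *sim* x *sec*, 6 of the 18 genes were without sites in *D. simulans*.

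The allele shares and the purebred levels were also combined into the regulatory categories of the study, kept where both mapping directions gave the same calls. These calls were made with beta intervals on reads, which cover counting error only and leave out the spread among embryos. Whether the purebred differences behind the categories exceed that spread was not tested with these intervals. A *trans* category means that, by these intervals, the purebred species differ while the alleles in the hybrid do not. At stage 2 it held 25 of 62 genes in *sim* x *mau* (21.2% of all genes), 20 of 62 in *mau* x *sim* (20.9%), 14 of 72 in *sim* x *sec* (11.3%), 22 of 58 in *sec* x *mau* (16.2%) and 21 of 58 in *mau* x *sec* (15.4%). The totals at both stages include genes that were not kept. At stage 2 these numbered 22 and 24 of 62, 40 of 72, and 24 and 23 of 58 in the same order. Over all genes they were 2980 of 5485, 2938 of 5502, 3257 of 5562, 2577 of 5068 and 2613 of 5091, a larger part in each cross. RpL4 was in the *trans* category in all 5 crosses. The purebred *D. simulans* made up 66.97% of the RpL4 level summed over both purebred species of *sim* x *mau*, and its allele 49.9% of the reads in the hybrid mothers' eggs. At stage 5 the study limited the categories to genes without maternal transcripts or with much higher levels than at stage 2. That limit was not applied here, so the stage 5 categories are not those of the study. At stage 5 the reciprocal crosses changed places. RpL4, for which *D. simulans* and *D. sechellia* were higher than *D. mauritiana*, was *cis* + *trans* in *sim* x *mau* and *sec* x *mau* and *cis* x *trans* in *mau* x *sim* and *mau* x *sec*. These categories held 40 (18% of all genes) and 6 (17.1%) ribosomal protein genes in *sim* x *mau*, 6 (18.4%) and 40 (14.6%) in *mau* x *sim*, 29 (20.9%) and 12 (15.9%) in *sec* x *mau*, and 12 (18.1%) and 29 (17.8%) in *mau* x *sec*. They rest on stage 5 shares near 99% of the mother's allele and on purebred levels that carry the limits given above.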

How the data were processed

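The authors trimmed the reads (Cutadapt 1.7.1), mapped them to either species' genome (TopHat 2.0.13), called variant sites with GATK, summed the reads of each allele over the sites of a gene and scaled each library by an upper quantile. The deposited values are therefore a signal, the scaled allele coverage of a gene, and not counts. Within a tolerance of 0.01 reads, 100% of the values were whole multiples of 1 read's worth, so the reads behind them were recovered. Intervals and shares used these reads, and the precision of a value depends on the number of reads at its sites. The main values came from mapping to *D. simulans*, or to *D. sechellia* in its pair with *D. mauritiana*, and the other mapping direction was an alternative.

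Totals (both alleles) and alleles were tested as log2(value + 1) with limma 3.58.1 in R 4.3.3, with 1 fit across all genes for each pair of species, two-sided, and with Benjamini-Hochberg adjustment over all genes tested at a threshold of 0.05. Genes with a mean under 5 were left out. Fold changes are on this log2 scale and understate changes of low genes. Alleles were compared within embryos, with the embryo as a block, and the first-named species' allele minus the other. Beta intervals (95%, prior 0.5) were set against 49% to 51% for the regulatory categories. Alternatives were TMM scaling, edgeR 4.0.16 on recovered reads, a pseudocount of 5, no minimum, the other mapping direction, a replicate block and leaving out each replicate. Scaling to the total, genes with equal numbers of sites, all *mau* x *sec* embryos for X-linked alleles and the sex comparison without them were added after seeing the data. The fits were tested on simulated data. Replicates are single embryos. Named with values are the stalk proteins, paralogs, RpL4 and up to 5 called genes per direction with the greatest difference in a comparison, and others are said to be chosen later. The genes, lists and comparisons were chosen with earlier results of these data known. Values of some genes are not reported here.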

Additional observations from a re-analysis of the deposited data

Results flagged for a closer look

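Values of single embryos stood apart in 4 of 84 sets of 6 values, all drawn from the stage 5 hybrids of the 5 crosses. This was judged by the gap to the nearest embryo as a share of the range of the set (Dixon's ratio at the 95% level). The ratio assumes normally spread values, for which chance flags about 1 in 20 sets. Sets of the same cross share their embryos and are not independent. RpL22-like, which was near 0 in most of these embryos, accounted for 3 of the 4 flags, so that rate need not hold here. At stage 5 it was at 1.39 to 2.45 scaled units in 4 embryos of *sim* x *mau* and at 142 and 804 in the other two (ratio 0.825), at 0 to 9.24 in 5 embryos of *mau* x *sec* and at 74.0 in the last (0.875), and at 1.01 to 10.2 in 5 embryos of *sec* x *mau* and at 713 in the last (0.987). RpL24 was at 4509.6 to 4768 in 5 embryos of *sec* x *mau* at stage 5 and at 6201 in the last (0.847).

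The hybrid excess over the mid-parent differed between stage 5 and stage 2, by the limma interaction test, in 5 of 66 ribosomal protein genes in *sim* x *mau* (larger at stage 5, against 5.82% of all genes), 2 of 66 in *mau* x *sim* (smaller, 7.95%), 3 of 60 in *mau* x *sec* (larger, 5.31%) and 18 of 74 in *sim* x *sec* (larger, 7.98%). Of these 18, 6 had no sites in purebred *D. simulans*. The 2 of *mau* x *sim* were RpL27 (-2.74 ± 0.56), which had fewer than 4 units in every hybrid embryo of that cross, and RpS13 (-0.41 ± 0.12).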

How the results depend on the processing

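None of the named values run under the alternatives changed direction. Among all the ribosomal protein genes some calls did turn under the other mapping direction, as given above for the purebred species and the stage 2 alleles. The median of *D. sechellia* over *D. mauritiana* at stage 2 (0.21) fell below 0 without replicate 2 of *D. mauritiana* (-0.08), and stage 2 allele medians within 0.04 of 0 changed sign in 5 cases. Of the counts of called genes, 236 stayed within 1.5 times the reported count under the other settings and 246 when 1 embryo was left out. The counts that moved further were those between *D. sechellia* and *D. mauritiana*, which ranged from 22 to 46 at stage 5 (34 reported) and from 15 to 29 at stage 2 (25 reported) as embryos were left out, and those of *sim* x *sec* and its parents among genes with equal numbers of sites. There the counts were 11 at stage 5 (34 over all genes of the list) and 12 at stage 2 (33) between the species, and 23 at stage 5 (60) and 21 at stage 2 (52) for hybrid and mid-parent. Fewer genes were tested there. Between the species the lower calls were also 0, against 19 at stage 5 and 16 at stage 2 over the whole list. Of the medians, 36 of 240 moved by more than the spread under the other settings, 8 each under TMM, edgeR and scaling to the total and 9 under the other mapping direction. For the interaction, edgeR called 13 genes in *sim* x *mau* (5 by limma) and 11 in *sim* x *sec* (18 by limma), and the cause was not tested. Of the named values, 481 kept their call under the other settings, 6 gained and 2 lost it. With the replicate number as a block, all 24 counts stayed within 1.5 times, for example 33 in place of 34 between *D. sechellia* and *D. mauritiana* at stage 5. Embryos with the same number did not deviate together (mean correlations of -0.08 to 0.06), so the numbers do not pair the samples. The site number and reads per site limit the weakly read genes RpL22-like, RpL27, RpS19b and RpL37b.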
